A study of Homo sapiens with 16 samples.

Results

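The genes described here are YAP1 and its paralogue WWTR1 (also called TAZ), the transcriptional coactivators at the end of the Hippo pathway, with 8 genes known as their targets: CYR61, CTGF, ANKRD1, AMOTL1, AMOTL2, LATS2, AXL and F3. These 10 genes, of 63677 identifiers in the count table, were chosen by symbol with earlier results of these data known, and the rule names no measured value that selected them. The adjusted p-values below therefore come from fits over all genes and describe these genes; they do not support the choice.

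The Hippo pathway is a kinase cascade in which MST kinases (STK3, STK4) activate the LATS kinases, and these phosphorylate YAP and TAZ so that they are held in the cytoplasm or degraded. When the cascade is off, for example in spread cells under mechanical tension, YAP and TAZ enter the nucleus and bind TEAD factors at DNA. Several targets act back on the pathway: LATS2 is one of its kinases, and AMOTL1 and AMOTL2 are angiomotin proteins that bind YAP. In pancreatic ductal cancer YAP is known for its part in tumour growth.

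The libraries come from the human pancreatic cancer cell lines Mia-PaCa-2 and PANC-1 (MiaPaCa2 and PANC1 below). Each line was left untreated as control or given gemcitabine at 40 nM, genistein at 50 uM, or both drugs, for 24 h. Gemcitabine is a deoxycytidine analogue that stops DNA synthesis, and genistein is an isoflavone from soy that binds oestrogen receptors and inhibits tyrosine kinases at high doses. The study compared these treatments to learn how genistein changes the response to gemcitabine, with 2 biological replicates in each of 8 groups. Per the methods, genistein was dissolved in DMSO, and the labels do not say whether control cells received that vehicle. Each line stands for a single tumour, and nothing beyond the word biological says that replicates were separate cultures, so p-values measure the spread between these libraries.

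Total counts per library ran from 12943482 to 31991860. Of 5 epithelial markers, 5 in PANC1 and 3 in MiaPaCa2 had a median above 1 FPKM (a level per transcript length and sequencing depth), and EPCAM and CDH1 were at or near 0 in MiaPaCa2. Of 7 markers of acinar, islet and duct cells, the duct factor SOX9 alone was above 1 FPKM in either line. The other duct marker, CFTR, had at most 1 count in any library. The labelled pancreas thus showed in SOX9 alone of these markers, beside the epithelial keratins KRT8, KRT18 and KRT19. Of 4 mesenchymal markers, 3 were above 1 FPKM in each line. Of 7 markers of other cell types, PTPRC and ALB had at most 1 count in any library, VWF at most 4, and DCN and PECAM1 had 0. The monocyte marker CD14 was above 1 FPKM in MiaPaCa2 (median 3.09 FPKM) and at a median of 0.616 in PANC1. The collagen gene COL1A1 was at a median of 0.953 FPKM in MiaPaCa2 and 74.9 in PANC1. It ran from 33.7 to 99.7 FPKM over the PANC1 libraries, so the sum given next for PANC1 rests mainly on this gene. The summed level of these 7 markers in PANC1 was 78.1 to 101.04 FPKM in control and 33.9 to 34.5 with genistein. In MiaPaCa2 the sum was 4.72 to 5.42 in control and 1.46 to 2.62 with genistein. The part of these genes in the genistein results was not tested, and in bulk RNA fewer cells of a type and less RNA per cell cannot be told apart. In MiaPaCa2 the slope of log2 level on gene GC content moved with gemcitabine: it was positive in all 4 libraries given it (0.0372 to 0.268 per 10 percentage points) and negative in the other 4 (-0.2175 to -0.00348). In PANC1 the slope differed between replicates, at 0.284 in control replicate 1 and -0.0717 in replicate 2, and -0.155 and 0.226 in the replicates given both drugs.

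YAP1 was called against control only with both drugs in MiaPaCa2, while WWTR1 fell with gemcitabine, alone or with genistein, in both lines. YAP1 (ENSG00000137693, GRCh37 chr11:101981178-102104155) was at 26.7 and 28.1 FPKM in the MiaPaCa2 control libraries, 25.7 and 24.8 with gemcitabine, 24.8 and 26.6 with genistein, and 24.6 and 18.9 with both drugs. In PANC1 the same groups were at 63.7 and 77.4, 76.2 and 83.4, 74.8 and 73.5, and 74.2 and 60.5 FPKM, so every PANC1 library was above every MiaPaCa2 library and the PANC1 treatments overlapped with control. A gene is called below where limma-voom gave it a Benjamini-Hochberg adjusted p, over all genes tested in that line, no larger than 0.05, where its log2 value was 0.4 or more away from 0, and where the treated group averaged above 1 FPKM. By that rule YAP1 fell in MiaPaCa2 with both drugs, by 0.49 on the log2 scale (SE 0.11, adjusted p = 0.00214). That value was -0.34 without replicate 2 of the MiaPaCa2 libraries given both drugs, and -0.31 after a correction for GC content, both short of the fold limit. With gemcitabine alone it was -0.34 in MiaPaCa2 (SE 0.10, adjusted p = 0.0225, below the fold limit) and 0.05 in PANC1 (SE 0.17, 95% interval -0.34 to 0.45).

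WWTR1 (ENSG00000018408, chr3:149235022-149454501), the other coactivator, had the highest FPKM of the 10 genes in both untreated lines. In the control libraries 1 of its 12 transcripts, ENST00000471586, held 60.0% to 69.9% of that FPKM. Counts over exon length put CYR61 above it. MiaPaCa2 control replicate 1 had 1581 counts on 3698 bases for CYR61 and 3313 on 8353 for WWTR1. PANC1 control replicate 2 had 6936 and 10103 counts. Its MiaPaCa2 libraries were at 105.3 and 100.1 FPKM in control, 78.3 and 71.1 with gemcitabine, 100.2 and 101.6 with genistein, and 65.2 and 48.9 with both drugs. Its PANC1 libraries were at 154 and 172, 110 and 117, 155 and 161, and 90.8 and 83.0 FPKM in the same order. In each line both groups given gemcitabine lay below control and genistein libraries without overlap. WWTR1 fell by 0.60 on the log2 scale with gemcitabine in MiaPaCa2 (SE 0.09, adjusted p = 0.000397) and by 0.72 in PANC1 (SE 0.11, adjusted p = 0.0121). With both drugs it fell by 0.95 in MiaPaCa2 (SE 0.10, adjusted p = 6.23e-06) and by 1.15 in PANC1 (SE 0.12, adjusted p = 0.00125). With genistein alone it was at 0.08 in MiaPaCa2 (95% interval -0.11 to 0.28) and at -0.08 in PANC1 (95% interval -0.34 to 0.18). The GC correction put the MiaPaCa2 gemcitabine value at -0.40, just short of the fold limit, and the PANC1 gemcitabine call was lost without either PANC1 gemcitabine library (adjusted p = 0.111 and 0.109).

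**Figure D1:**
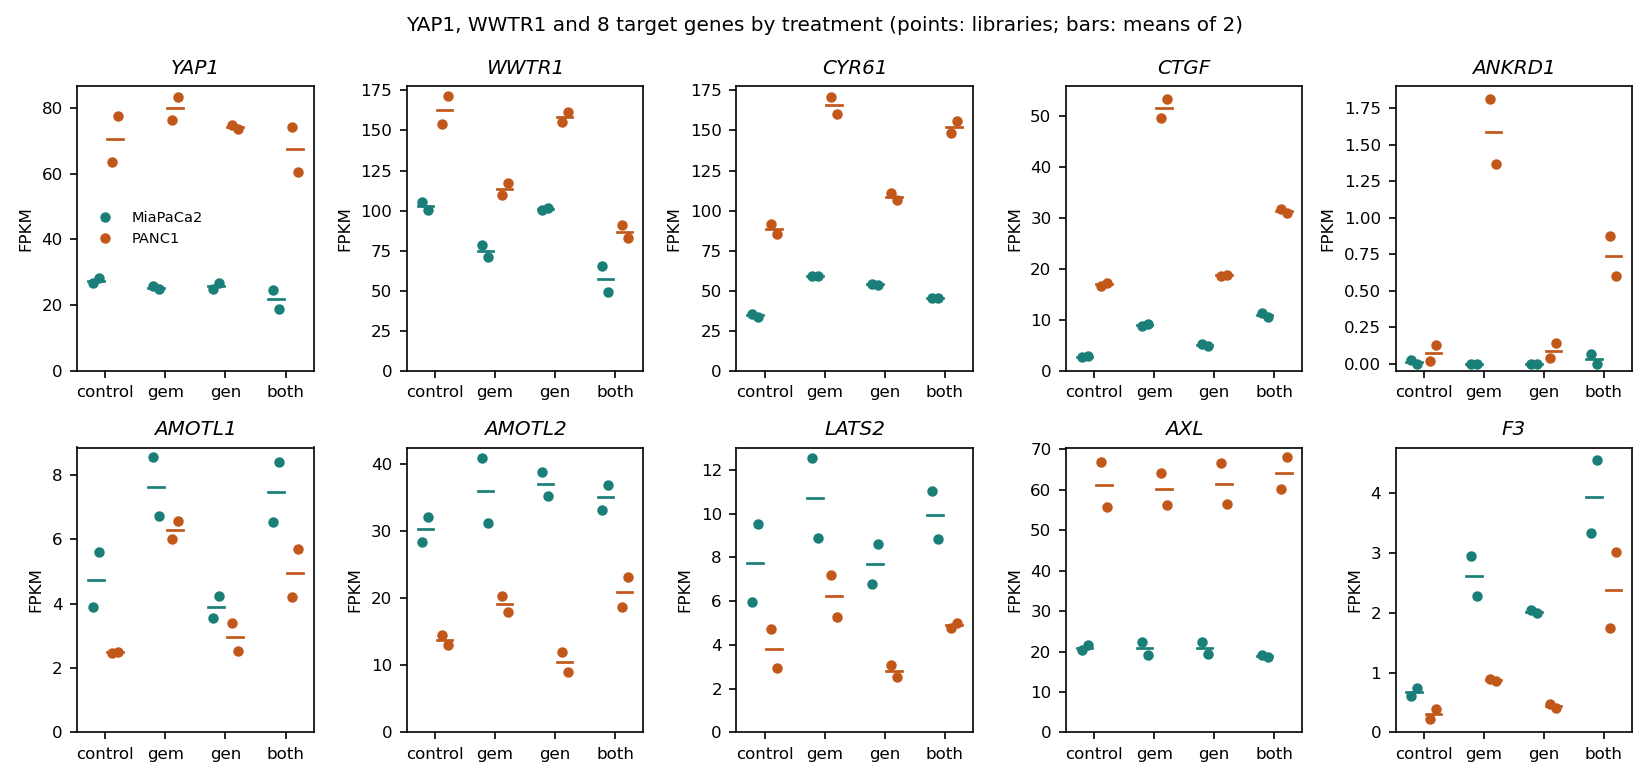
Level of each of the 10 genes in FPKM (linear axis) by treatment, where gem is gemcitabine and gen is genistein; points are the 16 libraries and bars the means of 2. YAP1, WWTR1, CYR61, CTGF and AXL lay higher in every PANC1 library than in the MiaPaCa2 libraries of the same treatment. AMOTL1, AMOTL2, LATS2 and F3 lay lower in every one. Within each line WWTR1 was lowest with both drugs.

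CYR61 and CTGF, 2 secreted matricellular proteins of the CCN family and common readouts of YAP activity, rose with gemcitabine in both lines. CTGF (CCN2, ENSG00000118523, chr6:132269316-132272512) was at 2.78 and 2.84 FPKM in MiaPaCa2 control, 8.71 and 9.25 with gemcitabine, 5.36 and 4.87 with genistein, and 11.4 and 10.6 with both drugs. The 4 MiaPaCa2 groups did not overlap and rose in the order control, genistein, gemcitabine, both. In PANC1 it was at 16.7 and 17.2 FPKM in control, 49.7 and 53.3 with gemcitabine, 18.7 and 18.8 with genistein, and 31.8 and 31.0 with both drugs. There gemcitabine alone was highest, and both drugs together lay between gemcitabine and control.

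With gemcitabine CTGF rose 2.91-fold in MiaPaCa2 (log2 fold change 1.54, SE 0.14, adjusted p = 1.11e-05) and 2.79-fold in PANC1 (log2 fold change 1.48, SE 0.10, adjusted p = 0.000696). With both drugs it rose 3.64-fold in MiaPaCa2 (adjusted p = 7e-07) and 1.65-fold in PANC1 (adjusted p = 0.00344). Genistein alone raised CTGF 1.81-fold in MiaPaCa2 (log2 fold change 0.86, SE 0.15, adjusted p = 0.0048), a call lost without either MiaPaCa2 control library (adjusted p = 0.0713 and 0.051). In PANC1 the genistein value was 0.13 (SE 0.11, 95% interval -0.13 to 0.39). These contrasts share their control libraries within a line.

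CYR61 (CCN1, ENSG00000142871, chr1:86046444-86050272) was at 35.4 and 33.9 FPKM in MiaPaCa2 control, 59.1 and 59.4 with gemcitabine, 54.4 and 53.8 with genistein, and 45.8 and 45.3 with both drugs. Each drug alone was thus higher than both together, and the 4 groups did not overlap. In PANC1 the values were 91.5 and 85.7, 171 and 160, 111.3 and 106.3, and 148 and 156 FPKM in the same order. CYR61 rose 1.55-fold with gemcitabine in MiaPaCa2 (log2 fold change 0.63, SE 0.08, adjusted p = 0.00012) and 1.72-fold in PANC1 (log2 fold change 0.78, SE 0.08, adjusted p = 0.00302). The PANC1 call was lost without PANC1 gemcitabine replicate 1 (adjusted p = 0.0551). Genistein alone raised it 1.57-fold in MiaPaCa2 (log2 fold change 0.65, SE 0.08, adjusted p = 0.00101), while PANC1 had a value of 0.30 (SE 0.09, adjusted p = 0.147). With both drugs it rose 1.54-fold in PANC1 (adjusted p = 0.00268) and had a log2 fold change of 0.29 in MiaPaCa2 (SE 0.08, adjusted p = 0.0129), below the fold limit.

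ANKRD1, a nuclear ankyrin repeat protein of muscle and a well-known YAP target, was scarcely expressed except in PANC1 with gemcitabine. ANKRD1 (ENSG00000148677, chr10:92671853-92680844) had 0 to 2 counts in every MiaPaCa2 library, at or under a floor of 3 counts, so no fold is given for that line. In PANC1 it had 1 and 9 counts in control, 68 and 62 with gemcitabine, 1 and 4 with genistein, and 27 and 21 with both drugs. As a share of all counts, the gemcitabine libraries together held 18.8 times the control level (exact 95% interval 9.92 to 40.2, counting error only). The libraries given both drugs held 8.42 times the control level (4.21 to 18.7) and 0.447 times the gemcitabine level (0.314 to 0.627). These intervals too cover counting error only and leave out the spread between replicates. By limma-voom, both drugs against gemcitabine had a log2 value of -1.20 for ANKRD1 and was not called. The fitted log2 fold change for gemcitabine was 4.39 (SE 0.62, adjusted p = 0.00852), a call lost without either gemcitabine library (adjusted p = 0.0646 and 0.0644). It was 3.47 without control replicate 1 and 5.52 without control replicate 2. For both drugs it was 3.18 (SE 0.66, adjusted p = 0.0143) with 0.874 and 0.597 FPKM, under the FPKM limit.

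CTGF and ANKRD1 rose most with gemcitabine in PANC1, and F3 rose with both drugs in both lines without TEAD letters in its window, so the 250 bases before their start sites are shown, from RefSeq (GRCh38.p14) and located by exact match in GRCh37 at chr6:132272513-132272762, chr10:92680845-92681094 and chr1:95007316-95007565, all on the minus strand and written 5′ to 3′ in the gene's direction. Capitals mark the TEAD core CATTCC or its reverse complement GGAATG.
CTGF: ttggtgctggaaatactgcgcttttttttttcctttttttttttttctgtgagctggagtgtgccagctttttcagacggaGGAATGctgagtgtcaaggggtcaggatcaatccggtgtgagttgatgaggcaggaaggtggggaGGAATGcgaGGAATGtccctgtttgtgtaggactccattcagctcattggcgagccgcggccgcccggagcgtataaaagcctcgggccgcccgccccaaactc
ANKRD1: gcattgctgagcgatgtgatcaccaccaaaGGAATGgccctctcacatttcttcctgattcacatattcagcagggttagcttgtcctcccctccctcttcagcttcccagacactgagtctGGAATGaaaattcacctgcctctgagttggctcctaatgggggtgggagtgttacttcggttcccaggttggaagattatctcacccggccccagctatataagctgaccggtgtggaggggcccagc
F3: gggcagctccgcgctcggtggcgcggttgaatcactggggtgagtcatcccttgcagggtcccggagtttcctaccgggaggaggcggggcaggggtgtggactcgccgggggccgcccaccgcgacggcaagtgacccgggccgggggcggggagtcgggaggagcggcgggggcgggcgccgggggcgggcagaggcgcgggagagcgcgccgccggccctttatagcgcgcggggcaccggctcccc
The core stood 3 times before the CTGF start, from 169 to 95 bases away, and at 220 and 128 bases before the ANKRD1 start. It was not found in the F3 window, where an AP-1 motif (TGACTCA or TGAGTCA) began 210 bases before the start. Over the 300-base windows of RefSeq (250 before to 50 after a start), searched on both strands, 6 of the 12 windows of 9 members held the TEAD core, against 14.03% of all 35116 windows. Apart from CTGF and ANKRD1 these were windows of YAP1, AMOTL2, LATS2 and AXL. None of those genes was called with gemcitabine against control in either line by the rule above. The GC correction called LATS2 and AMOTL2 in PANC1. LATS2 was also called there with library size alone and in a fit of all 16 libraries. AMOTL1, which rose with gemcitabine in both lines, and WWTR1, which fell in both, had no core in their windows. Members with and without the core were thus among those called, and a link between core and response was not tested. The AP-1 motif was in 4.95% of all windows. Most members were chosen as known YAP targets, so a higher share of windows with the TEAD core may follow from that choice. The share is no support from these data. A match of letters is a description and not a binding site, and no entry matched CYR61.

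The members that act back on the pathway differed from each other. AMOTL1 (ENSG00000166025, chr11:94439597-94609913) was at 3.89 and 5.61 FPKM in MiaPaCa2 control, 8.55 and 6.74 with gemcitabine, 3.55 and 4.24 with genistein, and 6.56 and 8.42 with both drugs. In PANC1 it was at 2.48 and 2.51, 6.01 and 6.57, 3.39 and 2.55, and 4.22 and 5.70 FPKM. The groups given gemcitabine lay above those without it in both lines. It rose with gemcitabine by a log2 fold change of 0.53 in MiaPaCa2 (SE 0.11, adjusted p = 0.00253) and 0.88 in PANC1 (SE 0.12, adjusted p = 0.00801), and with both drugs by 0.52 (adjusted p = 0.00188) and 0.81 (adjusted p = 0.00441). The PANC1 gemcitabine call was lost without either gemcitabine library (adjusted p = 0.0921 and 0.09).

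AMOTL2 (ENSG00000114019, chr3:134074189-134094321) ranged from 28.4 to 40.9 FPKM over the MiaPaCa2 libraries and from 8.94 to 23.2 over the PANC1 libraries, and no drug was called against control. Its gemcitabine value was -0.06 in MiaPaCa2 (95% interval -0.26 to 0.15), or 0.05 with library size alone, and 0.34 in PANC1 (-0.05 to 0.73), and the PANC1 value with both drugs was 0.49 (0.10 to 0.88, adjusted p = 0.0801). With the GC correction both PANC1 values were called (0.46, adjusted p = 0.00327, and 0.53, adjusted p = 0.000962). Library size alone also called the PANC1 value with both drugs (0.65, adjusted p = 0.024). So did a fit of all 16 libraries (0.47, adjusted p = 0.0406). LATS2 (ENSG00000150457, chr13:21547175-21635725), the kinase that inhibits YAP, ranged from 5.98 to 12.5 FPKM in MiaPaCa2 and from 2.53 to 7.22 in PANC1. Its gemcitabine value was 0.27 in MiaPaCa2 (SE 0.11, adjusted p = 0.0702) and 0.45 in PANC1 (SE 0.12, adjusted p = 0.0599). The PANC1 value was called with the GC correction (0.51, adjusted p = 0.00724). It was also called with library size alone (0.57, adjusted p = 0.0313) and in a fit of all 16 libraries (0.41, adjusted p = 0.0238).

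The surface proteins AXL, a receptor tyrosine kinase, and F3 (tissue factor), which starts blood clotting, differed in their responses. AXL (ENSG00000167601, chr19:41725128-41767671) ranged from 18.5 to 22.4 FPKM in MiaPaCa2 and from 55.8 to 68.0 in PANC1, and every treatment overlapped with control in PANC1. AXL was not called against control with any treatment. Its largest drug value was -0.34 in MiaPaCa2 with both drugs (SE 0.09, adjusted p = 0.00907), under the fold limit, and it was called at -0.57 with the GC correction (adjusted p = 3.09e-05).

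F3 (ENSG00000117525, chr1:94994729-95007315) was at 0.608 and 0.738 FPKM in MiaPaCa2 control, 2.95 and 2.28 with gemcitabine, 2.04 and 1.99 with genistein, and 3.33 and 4.55 with both drugs. In PANC1 it was at 0.228 and 0.391, 0.889 and 0.864, 0.469 and 0.406, and 1.74 and 3.02 FPKM. Control was lowest and both drugs highest in each line, on 12 to 97 counts per library. From the counts F3 rose 2.96-fold with gemcitabine in MiaPaCa2 (log2 fold change 1.56, SE 0.27, adjusted p = 0.00074), and 3.81-fold (adjusted p = 6.93e-05) and 4.27-fold (adjusted p = 0.00388) with both drugs in MiaPaCa2 and PANC1. With gemcitabine alone the PANC1 value was 1.13 (SE 0.33, adjusted p = 0.0741). Counts and FPKM parted for genistein in MiaPaCa2: the counts were 22 and 25 in control and 25 and 56 with genistein, for a log2 fold change of 0.58 (SE 0.29, adjusted p = 0.227), while a limma fit on log2(FPKM + 0.1) gave 1.46 (adjusted p = 0.0398).

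**Figure D2:**
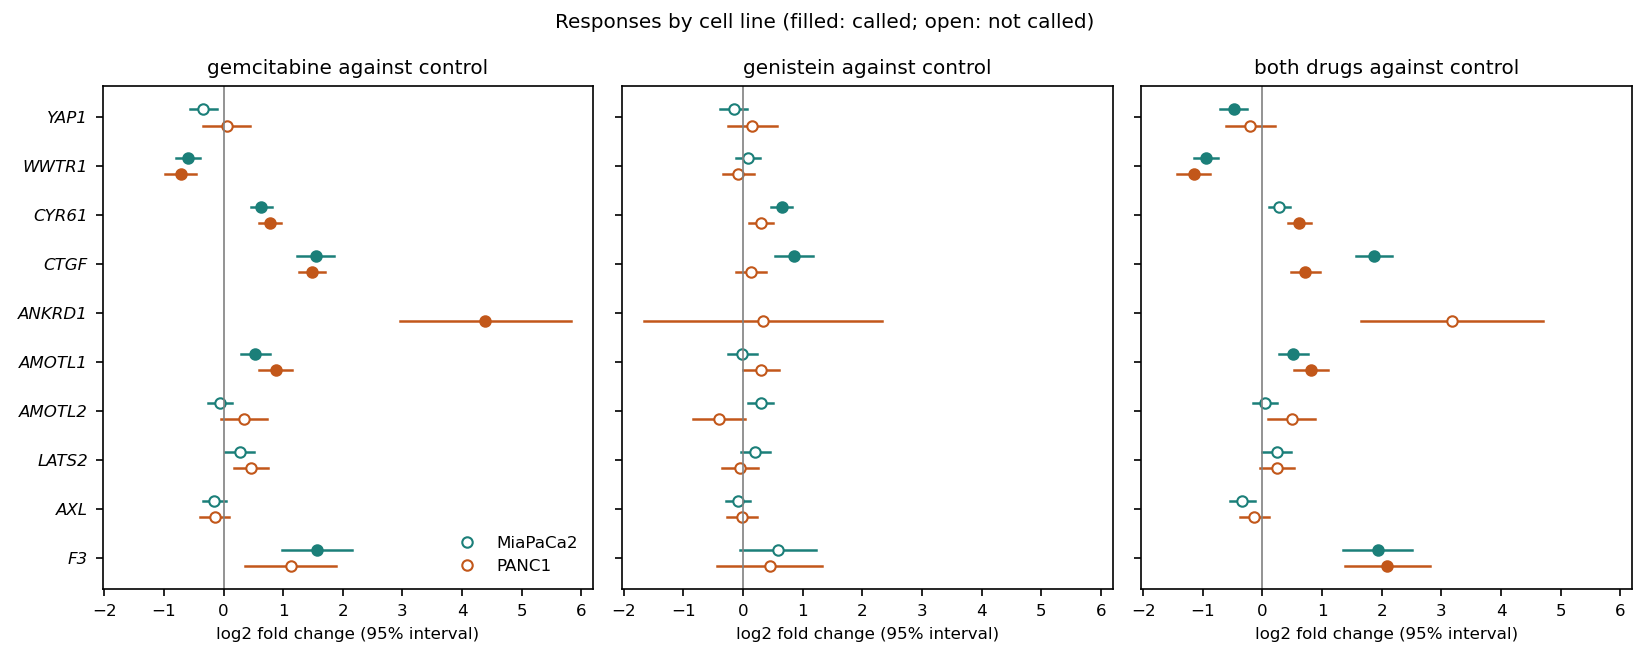
Log2 fold change against control with its 95% interval for each gene and line; filled points passed the adjusted p, fold and FPKM limits, and ANKRD1 is not drawn for MiaPaCa2. CYR61, CTGF and AMOTL1 lay to the right and WWTR1 to the left in both lines with gemcitabine, and genistein alone had filled points for CYR61 and CTGF in MiaPaCa2, while the line difference in that response passed for both genes only with the GC correction and for CTGF also with DESeq2.

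Counted over the members, gemcitabine raised 4 of 9 tested in MiaPaCa2 (CYR61, CTGF, AMOTL1, F3), where 14.9% of all 16064 genes rose, and lowered WWTR1, where 14.6% of all genes fell (29.5% in either direction). The GC slope was positive in every MiaPaCa2 library with gemcitabine and negative in the others, and with the GC correction 4 of these 5 members were called, all but WWTR1. In PANC1 it raised 4 of 10 (CYR61, CTGF, ANKRD1, AMOTL1), against 4.49% of all 16909 genes, and lowered WWTR1, against 3.03% (7.52% in either direction). CYR61, CTGF, AMOTL1 and WWTR1 were called in the same direction in both lines. The median log2 fold change was 0.27 over the 9 members in MiaPaCa2 and 0.62 over the 10 in PANC1, against -0.01 and 0.03 over all genes. With library size as the only scaling the split over all genes was 3077 higher and 1554 lower in MiaPaCa2, against 2400 and 2345, and 1167 and 317 in PANC1, against 759 and 513. The PANC1 count fell from 5 to 1 without PANC1 gemcitabine replicate 1 and to 2 without replicate 2, and the count over all genes from 1272 to 66 and 64.

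Genistein raised 2 of 9 members in MiaPaCa2, CYR61 and CTGF, where 4.17% of all genes rose and 4.13% fell (8.3% in all). Without control replicate 1 or 2 the count was 1, and that over all genes went from 1334 to 176 or 259. None of 10 was called in PANC1, where 10 of all genes were (0.0591%), although 1 member had an unadjusted limma-voom p under 0.05, and edgeR and DESeq2 called 0 members. DESeq2 called 738 of all genes there. Both drugs raised 3 members in MiaPaCa2 (CTGF, AMOTL1, F3), against 20.3% of all genes, and lowered 2 (YAP1, WWTR1), against 20.2% (40.5% in either direction). In PANC1 both drugs raised 4 (CYR61, CTGF, AMOTL1, F3), against 10.2%, and lowered WWTR1, against 6.9% (17.1% in either direction). Library size alone gave 2686 higher and 677 lower genes in PANC1, against 1730 and 1167.

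When genistein was added to gemcitabine, no member was called in either line, where 5.88% of all MiaPaCa2 genes and 0.0177% of all PANC1 genes were. By unadjusted limma-voom p, 3 members in MiaPaCa2 and 4 in PANC1 were under 0.05, and edgeR called none. In MiaPaCa2 CYR61 had a log2 value of -0.35 (SE 0.08, adjusted p = 0.0232) and WWTR1 of -0.35 (SE 0.10, adjusted p = 0.0477), both under the fold limit. The GC correction called CYR61 there (-0.41, adjusted p = 0.000942). It also called F3 in PANC1 (0.996, adjusted p = 0.0379). A fit of all 16 libraries called WWTR1 in PANC1 (-0.41, adjusted p = 0.0393). In PANC1 CTGF had a value of -0.76 (SE 0.10, adjusted p = 0.0745), with no overlap between its libraries, and was called with the GC correction (adjusted p = 0.00251), with DESeq2 (adjusted p = 1.58e-05) and in a fit of all 16 libraries (adjusted p = 0.00134).

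When gemcitabine was added to genistein, CTGF, AMOTL1 and F3 rose in MiaPaCa2 (log2 fold changes 1.01, 0.53 and 1.35), against 16.6% of all genes, and WWTR1 fell by 1.03, against 14.9% (31.5% in either direction). In PANC1 CTGF, AMOTL1, AMOTL2 and F3 rose (0.59, 0.51, 0.89 and 1.65), against 3.87%, and WWTR1 fell by 1.07, against 4.31% (8.18% in either direction). Over all genes library size alone gave 3329 higher and 1615 lower in MiaPaCa2, against 2666 and 2400. In PANC1 it gave 1150 and 318, and the GC correction 2018 and 1458, against 655 and 728. The PANC1 count of 5 was 0 without genistein replicate 1 or 2, where that over all genes went from 1383 to 27 or 29, and 2 or 1 without replicate 1 or 2 of the libraries given both drugs.

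Whether both drugs together differed from the sum of each alone was tested as an interaction. In MiaPaCa2 it passed for CYR61, at -0.996 on the log2 scale (SE 0.12, adjusted p = 0.00987), where 4 of all genes passed (0.0249%). Each drug alone raised CYR61 by 0.63 and 0.65, which sum to 1.28, and both together gave 0.29. That call was lost without either MiaPaCa2 control or either MiaPaCa2 gemcitabine library (adjusted p = 0.108 to 0.227), while the value stayed between -1.03 and -0.97. The other 8 tested members had values from -0.53 for CTGF to 0.00 for YAP1. In PANC1 no gene passed with limma-voom (0%), while 832 genes had an unadjusted p under 0.05, DESeq2 passed 4 with CTGF among them (adjusted p = 0.0276) and edgeR 0. There CTGF was at -0.89 (SE 0.15, adjusted p = 0.734), CYR61 at -0.46 (SE 0.12) and F3 at 0.52 (SE 0.47).

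**Figure D3:**
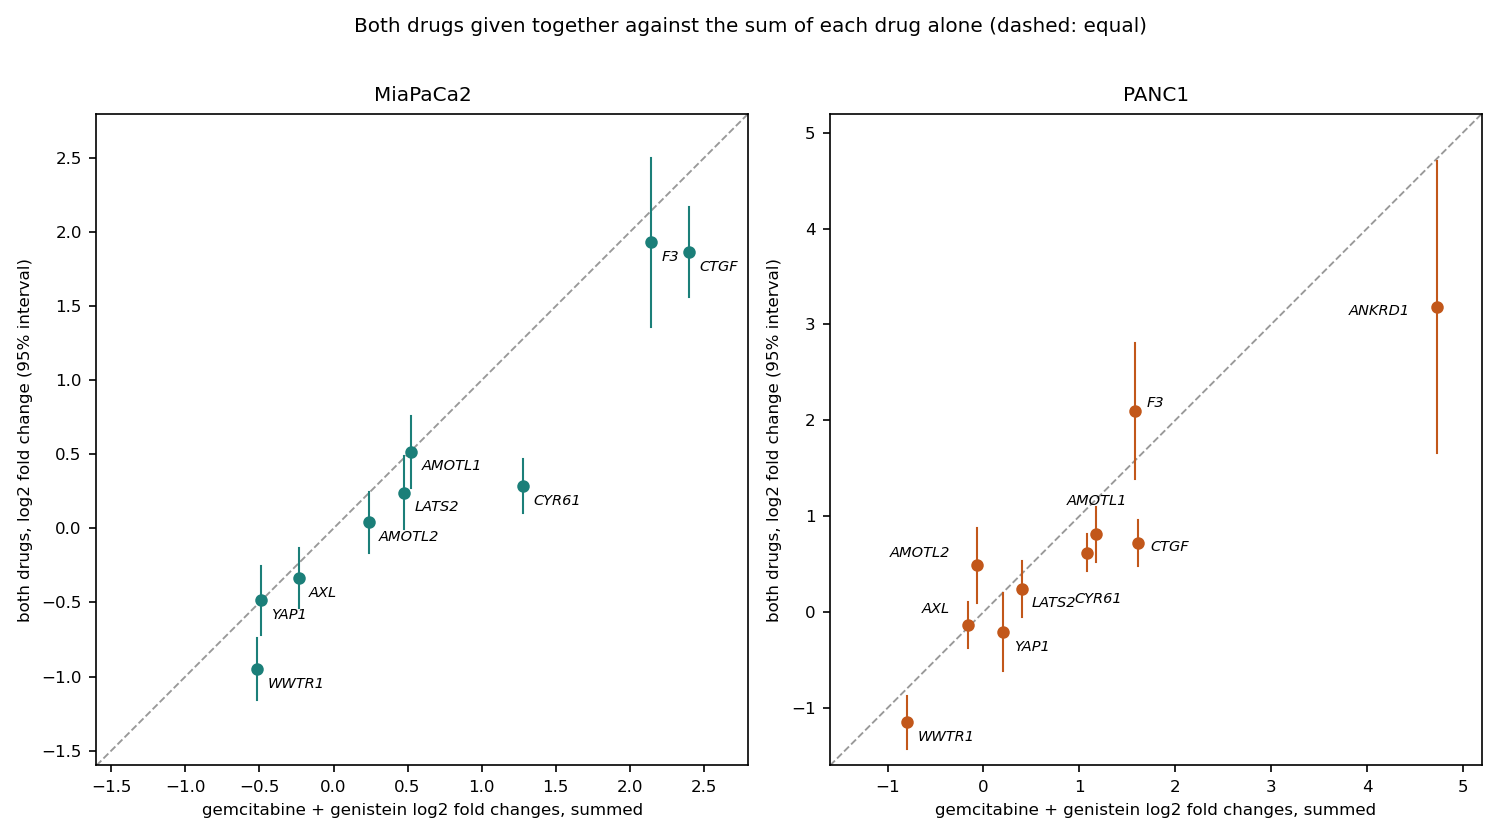
Log2 fold change with both drugs (y, with 95% interval) against the sum of the single-drug log2 fold changes (x) for each gene, by line; the dashed line marks equality and both axes use the same control libraries. CYR61 in MiaPaCa2 had a both-minus-sum value of -0.996, and CTGF of -0.53 in MiaPaCa2 and -0.89 in PANC1.

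Without drug the 2 lines differed in 8 of the 10 members. YAP1, WWTR1, CYR61, CTGF and AXL were higher in PANC1, where 27.9% of all 17863 genes were, and AMOTL1, AMOTL2 and LATS2 were lower, where 24.3% were (52.2% in either direction). The largest called difference was for CTGF, 5.87-fold (log2 2.55, SE 0.12, adjusted p = 1.04e-09). AXL was 2.85-fold higher (log2 1.51, SE 0.11), YAP1 2.6-fold (log2 1.38, SE 0.14) and CYR61 2.46-fold (SE 0.09 on the log2 scale), and WWTR1 was 1.5-fold higher (log2 0.58, SE 0.09). AMOTL2 and LATS2 were both 2.45-fold lower (log2 -1.29, SE 0.15 and 0.11) and AMOTL1 1.93-fold lower (log2 -0.95, SE 0.11). F3 had a difference of -1.16 (SE 0.33, adjusted p = 0.00729), with both lines under 1 FPKM. Both coactivators, both secreted targets and AXL were thus higher in PANC1, and AMOTL1, AMOTL2 and LATS2 lower. AMOT, the angiomotin gene that gave the AMOTL genes their name and no member, was higher in PANC1 (log2 7.85, SE 0.54, adjusted p = 3.7e-08), at a mean of 2.51 FPKM against 0.00439.

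**Figure D4:**
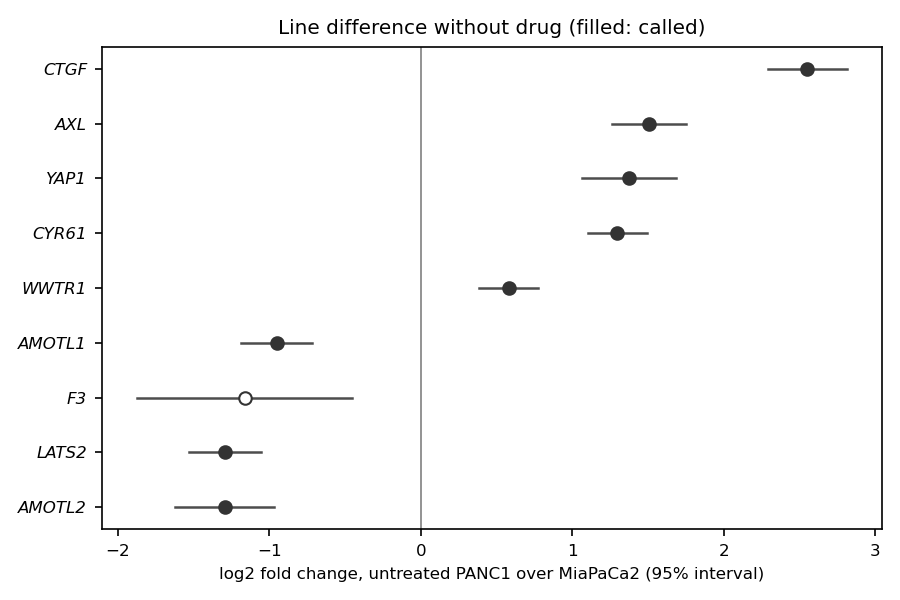
Log2 fold change of untreated PANC1 over untreated MiaPaCa2 with its 95% interval; filled points passed all limits. CTGF was highest at 2.55, AMOTL2 and LATS2 were lowest at -1.29, and ANKRD1 is not drawn because MiaPaCa2 control had 0 and 1 counts.

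The drug responses of the lines were compared directly. For gemcitabine the members with counts in both lines showed no difference that passed, where 15.3% of all genes did: CTGF differed by -0.16 (95% interval -0.49 to 0.17), CYR61 by 0.05 (-0.21 to 0.31), WWTR1 by -0.22 (-0.51 to 0.07) and AMOTL1 by 0.24 (-0.08 to 0.56). With the GC correction WWTR1 (-0.46, adjusted p = 0.00189) and AMOTL2 (0.66, adjusted p = 0.00063) passed. ANKRD1 passed with and without that correction, but with MiaPaCa2 at or under the floor its value has no reading. For genistein no member passed (0.0336% of all genes), although 3 had an unadjusted limma-voom p under 0.05. CTGF was at -0.78 (SE 0.16, adjusted p = 0.117), which passed with DESeq2 (adjusted p = 0.00316), and CYR61 was at -0.40 (SE 0.13, adjusted p = 0.286). With the GC correction 4 members passed: CTGF (-0.77, adjusted p = 0.0113), AMOTL2 (-0.53, adjusted p = 0.0281), WWTR1 (-0.39, adjusted p = 0.0316) and CYR61 (-0.45, adjusted p = 0.0428). For both drugs CTGF passed, rising 1.23 less on the log2 scale in PANC1 (difference -1.23, SE 0.15, adjusted p = 0.000211), where 18.1% of all genes passed. With the GC correction AMOTL2 (0.71), WWTR1 (-0.49), AXL (0.37) and CYR61 (0.33) passed as well (adjusted p = 0.000217 to 0.0311). Library size alone gave 1824 higher and 1397 lower genes, against 1319 and 1920.

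Other genes of the pathway, in lists that were also drawn up with earlier results known, moved in both directions. Of 15 other reported YAP targets, 12 were tested in MiaPaCa2: gemcitabine raised 2 and lowered 4, and both drugs raised 2 and lowered 6. That is 6 of 12 against 29.5% of all genes with gemcitabine, and 8 of 12 against 40.5% with both drugs. NUAK2, a kinase related to AMPK, rose (log2 0.78 with gemcitabine), while MYOF, a membrane repair protein (-0.74), CRIM1, a membrane protein that binds BMPs (-0.68), and ASAP1, an Arf GTPase activator (-0.64), fell. Genistein raised NUAK2 alone (0.62), 1 of 12 against 8.3%. With both drugs FJX1 (-1.02), MYOF (-1.01), ASAP1 (-0.93) and NT5E, the ectonucleotidase CD73 (-0.85), fell most. In PANC1 gemcitabine raised GADD45A, a DNA damage response gene (1.94), and NUAK2 (1.36) and lowered MYOF (-0.52) and PTPN14 (-0.45), a phosphatase that binds YAP, 4 of 15 tested against 7.52% of all genes. Genistein alone gave no call, and both drugs raised 3 and lowered 3 (against 17.1%), led by GADD45A (1.67), NUAK2 (1.43), CCDC80 (1.01) and MYOF (-0.97). The list's median was -0.34 with gemcitabine in MiaPaCa2 and 0.07 in PANC1, below the members' medians in both lines. With the GC correction the list had 5, 1 and 8 calls in MiaPaCa2 with gemcitabine, genistein and both drugs. In PANC1 it had 7, 1 and 8, where the counts over all genes rose as well.

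**Figure D5:**
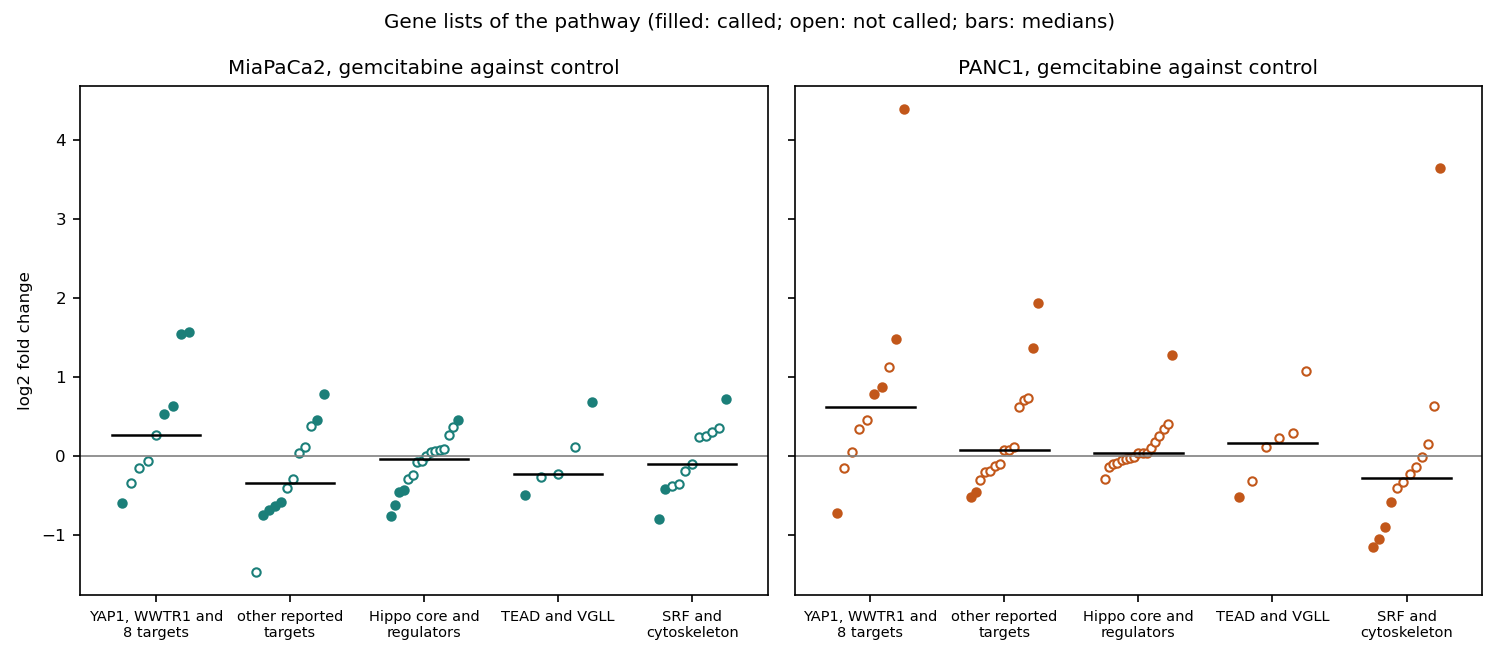
Log2 fold change with gemcitabine for every tested gene of the members and of the 4 other lists, by line; filled points passed the limits and bars are medians. The members' median was 0.27 in MiaPaCa2 and 0.62 in PANC1, and that of the other reported targets -0.34 and 0.07.

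Of 17 Hippo kinases and regulators, 16 were tested in MiaPaCa2, where gemcitabine lowered 4 and raised 1: TAOK1 (-0.75) and LATS1 (-0.62), kinases of the cascade, and NF2, or merlin (-0.46), fell, and the scaffold SAV1 rose (0.46). These 5 of 16 are 31.2%, close to the 29.5% of all genes. Both drugs lowered 6 and raised 3 there (9 of 16, against 40.5%). TAOK1 was at -1.37, LATS1 at -0.93, SAV1 at 0.80 and NF2 at -0.74. Genistein alone gave no call in MiaPaCa2, against 8.3% of all genes. In PANC1 RASSF1, a scaffold of the MST kinases, rose with gemcitabine (1.28) and with both drugs (1.36), and AJUBA, a LIM protein that restrains LATS, rose with both drugs (0.41). The other 15 of the 17 PANC1 genes were not called with either, nor any with genistein, against 7.52% of all genes with gemcitabine and 17.1% with both drugs. The GC correction put LATS1 with gemcitabine at -0.28 in MiaPaCa2 and AJUBA at 0.36, both short of the fold limit. It also added calls. With it the list had 4, 4 and 9 calls in MiaPaCa2 with gemcitabine, genistein and both drugs. In PANC1 it had 2, 1 and 4, where the counts over all genes rose as well.

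Of the 8 TEAD and VGLL genes, 5 were tested in MiaPaCa2 and 6 in PANC1. In MiaPaCa2 gemcitabine raised TEAD3 (0.69) and lowered TEAD1 (-0.49), genistein raised TEAD3 (0.46), and both drugs raised TEAD3 (0.64) and lowered TEAD1 (-0.65) and TEAD2 (-0.57). These were 2, 1 and 3 of 5 genes, against 29.5%, 8.3% and 40.5% of all genes. With the GC correction TEAD1 with gemcitabine (-0.30, adjusted p = 0.061) and TEAD3 with genistein (0.39) and with both drugs (0.32) were not called. Others of the list were gained, so it had 3, 0 and 3 calls in MiaPaCa2 with gemcitabine, genistein and both drugs. In PANC1 it had 2, 1 and 1 with that correction. In PANC1 VGLL4, which competes with YAP for TEAD, fell with gemcitabine (-0.52) and with both drugs (-0.81), and no other gene of the list was called (1 of 6 each time, against 7.52% and 17.1%). Of 12 SRF and cytoskeleton genes, which share mechanical inputs with YAP, 11 were tested in MiaPaCa2, where gemcitabine lowered ACTB (-0.80) and ACTG1 (-0.41) and raised ACTA2 (0.72). Genistein raised ACTG1 (0.63), and both drugs lowered ACTB (-0.69), CALD1 (-0.47) and VCL (-0.42) and raised MYL9 (0.44). These were 3, 1 and 4 of 11 genes, against the same shares of all genes. With the GC correction CALD1 (-0.10, adjusted p = 0.385), MYL9 (0.11, adjusted p = 0.28) and VCL (-0.39, under the fold limit) were not called. Here too others were gained, and the SRF list had 4, 1 and 3 calls in MiaPaCa2 with gemcitabine, genistein and both drugs. In PANC1, with 12 tested and 5 called with gemcitabine and 5 with both drugs (against 7.52% and 17.1%), gemcitabine raised CNN1, or calponin (3.64), and lowered 4, led by TAGLN (-1.15), ACTG1 (-1.04) and ACTB (-0.89), genistein gave no call, and both drugs raised CNN1 (3.11) and lowered 4, led by ACTB (-1.23), ACTG1 (-1.05) and TPM1 (-0.67). The actin genes have near-identical copies in the genome, so their counts are uncertain.

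The genes whose pattern over the 16 libraries was most like that of a member were found by the root mean square difference of log2 CPM centred within each line, among 15086 genes. For CTGF they were KIF13B (0.255), PGM2L1 (0.267) and PSMC3IP (0.279), against 0.66 for a gene that did not vary. For CYR61 they were KANSL3 (0.155), C1orf112 (0.162) and RNF114 (0.167), against 0.286. For ANKRD1 they were ZNF165 (0.581), FAM111B (0.597) and GADD45A (0.618), against 1.2. With ANKRD1 at or under the floor in every MiaPaCa2 library, its pattern in that line has no reading, and neither has likeness to it there. The libraries share treatments and depth, and the values are a description.

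Transcript estimates were steady for members with 1 main form and unsteady for others. The main CYR61 transcript held 96.6% to 99.5% of its gene's FPKM in every library, and CTGF and ANKRD1 have 1 listed transcript. The leading YAP1 transcript of 9 held from 0.00191% to 45.8% over the libraries and differed by up to 16.3 percentage points between replicates. For AMOTL1 the replicates differed by up to 60.4 points, for F3 by up to 41.1, for LATS2 by up to 36.5 and for WWTR1 by up to 27.4. No isoform change is therefore given for these. Genes on the other strand overlap 10.1% of the YAP1 exon length, 9.05% of WWTR1, 11.9% of CTGF and 4.95% of AMOTL1, and whether the counting used strand is not given in the sources used here.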

How the data were processed

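Poly-A RNA of 16 libraries, 2 per group, was prepared with a stranded kit and sequenced. Per the submitters' processing notes and the methods, the authors aligned reads with TopHat2 2.0.4 to GRCh37, used SAMtools and Picard 1.29, and counted reads per gene with HTSeq 0.6.1; the deposited counts are not normalized. The authors also deposited gene and isoform FPKM from Cufflinks 2.1.1. The annotation release and the strand setting are not given in the sources used here. Counts and FPKM were joined by identifier. Where an identifier had several FPKM rows (128 of them), the first was used, and where a symbol of a list had several identifiers, the one with most counts.

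From the counts, genes were filtered with filterByExpr of edgeR 4.0.16, scaled by TMM and fitted with limma-voom (limma 3.58.1, R 4.3.3), 8 libraries per line with a mean per group, or all 16 libraries where lines were compared. p-values were adjusted by Benjamini-Hochberg over all genes of a comparison. Called genes had an adjusted p no larger than 0.05, a log2 value 0.4 or more away from 0 and, as in the methods, a mean above 1 FPKM in the first-named group (either line for the comparison of lines). Interactions and differences between lines were judged on the adjusted p alone. After the filter 16064 genes and 9 members (not ANKRD1) were tested in MiaPaCa2, and 16909 genes and all 10 members in PANC1. The scripts were tested on simulated data.

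The members and all gene lists were chosen with earlier results of these data known. Named were the 10 members, at most 4 called genes per list and comparison with the largest absolute log2 fold change, the 3 genes closest in pattern to CYR61, CTGF and ANKRD1, and cell type markers. Alternatives were edgeR's quasi-likelihood test, DESeq2 1.42.0, its size factors, library size alone, no low-count filter, limma on log2(FPKM + 1) and log2(FPKM + 0.1), no FPKM limit, a replicate block, a GC correction (loess, gene models of GENCODE 44 lifted to GRCh37), both of these together, 1 fit of all libraries, and leaving out each library. Total counts of 12943482 to 31991860 per library set the counting error, which the intervals on ANKRD1 cover alone. No 2 replicates agreed within counting error (chi-square per degree of freedom from 2.7 to 32.0 by group).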

Additional observations from a re-analysis of the deposited data

Results flagged for a closer look

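CYR61 in MiaPaCa2 stood out because its response to both drugs differed from the sum of the single responses. The interaction was -0.996 on the log2 scale (SE 0.12, adjusted p = 0.00987, limma-voom), and both libraries given both drugs (45.8 and 45.3 FPKM) lay under all 4 libraries given 1 drug (53.8 to 59.4 FPKM). It passed with the GC correction (-0.96, adjusted p = 0.000574), and it did not with limma on log2(FPKM + 1) or log2(FPKM + 0.1) (adjusted p = 0.247 and 0.258), nor in 4 of the 8 fits that left out 1 library (adjusted p = 0.108 to 0.227). Its value with a replicate block is given with the processing alternatives.

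CTGF stood out because its response to both drugs differed between the lines. The difference, PANC1 minus MiaPaCa2, was -1.23 on the log2 scale (SE 0.15, adjusted p = 0.000211, limma-voom) in a fit of all 16 libraries, and it passed in all 8 fits that left out 1 library (-1.29 to -1.15). Separate fits of each line gave a response of 1.87 in MiaPaCa2 and 0.72 in PANC1.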

How the results depend on the processing

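The 42 member values called above gave 493 values under 12 alternatives, of which 470 kept the call, 23 lost it and none reversed. Leaving out 1 library gave 180 values, of which 34 lost the call and none reversed. Each alternative below gives the number of members called or passing. With limma on log2(FPKM + 1), the MiaPaCa2 count was 1 for genistein against control and, as with log2(FPKM + 0.1), 3 for both drugs against control and 0 for the interaction. Both FPKM fits gave 3 for the line difference in the both-drugs response, and library size alone gave 2. The GC correction gave 1 for both drugs against gemcitabine in MiaPaCa2 and 2 in PANC1, and 3, 4 and 5 for the line differences in the gemcitabine, genistein and both-drugs responses; together with a replicate block these were 1, 1, 3, 2 and 5. DESeq2 gave 1 for both drugs against gemcitabine in PANC1, 1 for the PANC1 interaction, 0 for the gemcitabine line difference (no adjusted p for ANKRD1) and 1 for the genistein one, and edgeR gave 0 for the gemcitabine line difference. The fit of all 16 libraries gave 2 for both drugs against gemcitabine in PANC1. The cause of these changes was not tested.

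With a replicate block the MiaPaCa2 interaction count was 0 (CYR61 -0.996, adjusted p = 0.0621) and the PANC1 count for both drugs against genistein was 1, with CTGF, AMOTL1, AMOTL2 and F3 lost (adjusted p = 0.0584 to 0.102). The numbers share no known source: correlations of same-numbered libraries' deviations ran from -0.295 to 0.153 in MiaPaCa2 and from -0.579 to 0.339 in PANC1. Leaving out 1 library gave 1 to 2 members for genistein against control, 4 to 5 for both drugs against control, 0 to 1 for both drugs against gemcitabine and 0 to 1 for the interaction in MiaPaCa2; 1 to 5 for gemcitabine against control and 0 to 2 for both drugs against genistein in PANC1; and 0 to 1 and 1 to 2 for the line differences with gemcitabine and both drugs. F3 and ANKRD1 rest on the fewest counts.

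Counts called over all genes moved by more than 1.5 times as follows (GC, GC correction; block, replicate block; 16 libraries, 1 fit of all). In PANC1, gemcitabine went from 1272 to 2984 (GC), 2742 (GC with block), 2409 (16 libraries), 442 (block) and 598 and 613 (the FPKM fits, pseudocounts 1 and 0.1). Genistein went from 10 to 1208, 759, 715 and 0 in the same order, 738 with DESeq2, 3 with its size factors, 18 with library size alone and 3 with log2(FPKM + 1). Both drugs went from 2897 to 4828 (GC) and 4573 (GC with block). Both against gemcitabine went from 3 to 1191, 731, 485 and 0 in the first order, and 208 with DESeq2. Both against genistein went from 1383 to 3476, 3283, 2600 and 499 likewise, and 2160 with DESeq2. The interaction went from 0 to 2 (GC) and 4 (DESeq2). In MiaPaCa2, gemcitabine went from 4745 to 3129 with log2(FPKM + 0.1), and genistein from 1334 to 587 (16 libraries) and 219 and 228 (the FPKM fits). Both against gemcitabine went from 944 to 1545 (GC), 1426 (GC with block), 491 (16 libraries), 616 (block), 90 and 1 (the FPKM fits). The interaction went from 4 to 83, 30 and 0 (GC, GC with block, block), 34 with DESeq2, 7 with its size factors, and 0 and 1 (the FPKM fits). Line differences went from 2728 to 4593 (GC), 4305 (GC with block), 1632 and 1310 (the FPKM fits) for gemcitabine, and from 3239 to 5290 and 5014 (GC, GC with block) for both drugs. For genistein they went from 6 to 353, 282 and 0 (GC, GC with block, block), 186 with DESeq2, 19 with edgeR, 3 and 1 (the FPKM fits) and 1 with no low-count filter. Leaving out 1 library gave 64 (PANC1 gemcitabine replicate 2) to 1919 (PANC1 control replicate 2) for gemcitabine, 0 to 1 for genistein, 1865 (both-drugs replicate 1) to 2845 for both drugs, 0 for both against gemcitabine and 27 (genistein replicate 1) to 1185 for both against genistein in PANC1. In MiaPaCa2 it gave 2855 (control replicate 1) to 3845 for gemcitabine, 176 (control replicate 1) to 1116 for genistein, 137 (gemcitabine replicate 2) to 1888 (both-drugs replicate 1) for both against gemcitabine, and 0 to 24 for the interaction. The line differences ran from 857 (MiaPaCa2 control replicate 1) to 5463 (PANC1 control replicate 2) for gemcitabine, from 0 to 86 for genistein and from 1477 to 5513 for both drugs (the same libraries). With library size alone, the all-gene median for both drugs in PANC1 was 0.17 on the log2 scale, against 0.01 with TMM.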
